A study of Mus musculus with 6 samples.

Results

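The genes described here are 10 genes of transforming growth factor beta (TGF-beta) signaling and of the scar matrix that it drives. They were picked by gene name, with earlier results of these data known, and all 10 of them were among the 56923 genes listed and the 17212 genes tested. They comprised the ligands *Tgfb1*, *Tgfb2*, and *Tgfb3*, the receptors *Tgfbr1* and *Tgfbr2*, the intracellular mediators *Smad3* and *Smad7*, and the effectors *Postn*, *Fn1*, and *Ccn2*. Messenger RNA was sequenced from the LVs of 12-week-old mice, with a library each for 3 WT mice and 3 *Lztr1* R409C/+ mice. LZTR1 is an adaptor of a ubiquitin ligase that lowers the level of RAS-family proteins, and the knock-in allele models Noonan syndrome, a congenital syndrome with cardiac hypertrophy. The sample labels call the groups wild-type and mutant and the tissue heart, while the allele and the LV come from the methods of the study. According to these methods, the mutation was introduced with CRISPR/Cas9 and the line was backcrossed to C57BL/6J mice, only male mice were used to assess phenotypes, and hearts were perfused with cold buffer before collection. The mutation was heterozygous and present in every cell of the mouse, no mouse of either group was described as treated, and the sources do not say whether the sequenced mice were littermates.

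TGF-beta is secreted in a latent complex that is held in the extracellular matrix until integrins or proteases release it. The active ligand binds TGFBR2, which phosphorylates TGFBR1, and TGFBR1 phosphorylates SMAD2 and SMAD3, which enter the nucleus with SMAD4 and turn on target genes, while SMAD7 feeds back to block the receptor. In the heart, this pathway is known for turning resident fibroblasts into matrix-secreting myofibroblasts, and periostin, fibronectin, and CCN2 (also called connective tissue growth factor) are among the products used to follow it.

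Library totals were between 66130887 and 72641124 counts, and the 10 genes had between 377 and 8044 counts in each mouse. Levels are given as CPM, a gene's count relative to the effective size of its library (by the trimmed mean of M values, TMM), where 3 counts were 0.0317 to 0.0541 CPM, and a log2 fold change is R409C/+ over WT. Mitochondrially encoded RNAs took 13.8% of the counts of WT replicate 3 and 45.4% of those of R409C/+ replicate 1, against 29.7% to 37.3% in the other 4 libraries, and the TMM factors of these libraries were 1.39 and 0.80. For each of the 10 genes and the pathway lists, values without these libraries are given too. *Lztr1* itself was at 23.5 ± 1.11 CPM in WT and 25.7 ± 2.03 CPM in R409C/+ mice (SD, n = 3), which does not check the genotype, because a base substitution does not appear in gene counts. For the tissue label, 10 cardiomyocyte markers summed to between 39011 and 57600 CPM, and of 5 atrial markers *Sln*, *Myl7*, and *Bmp10* did not exceed 0.262 CPM in any mouse, *Myl4* was at 0.357 to 0.570 CPM, and *Nppa*, which ventricles also express, was at 37.7 to 106.5 CPM. In bulk tissue, fewer cells of a type and less RNA per cell cannot be told apart.

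None of the 10 genes passed an adjusted p of 0.05 between R409C/+ and WT mice (edgeR quasi-likelihood test, Benjamini-Hochberg adjustment over all genes tested). DESeq2 and the edgeR exact test also called 0 of them. Over all 17212 genes, 7 genes or 0.0407% were called. *Tgfb3* and *Postn* had an unadjusted p under 0.05, which is 2 of 10 beside 8.63% of all tested genes. The mean was higher in R409C/+ mice for 8 of the 10 genes and lower for *Smad7* and *Ccn2*, where 51.4% of all tested genes had a log2 fold change above 0. With library size only, and without R409C/+ replicate 2, 6 of the 10 genes were above 0. The median log2 fold change of the 10 was 0.18, against 0.012 for all tested genes. That median was 0.06 without R409C/+ replicate 3 and, with library size only, 0.06 where the median of all genes was -0.14. In none of them did the 2 groups of mice separate without overlap, where 8.3% of all tested genes were separated with R409C/+ mice higher and 7.23% with R409C/+ mice lower. R409C/+ replicate 3 had the highest value of the 6 mice for 5 of the 10 genes, and WT replicate 3 had the lowest value for 4. The SD was larger in R409C/+ than in WT mice for 8 of the 10. How often these patterns of extremes and SD occurred over all tested genes is not given here, so they are not read as a trait of the 10 genes. In data simulated with 1 mean per gene for all libraries, 83 of 200 genes given a log2 change of 1 were called, together with 9 unchanged genes. Smaller changes, such as the 0.53 of *Postn*, were not simulated, so this gives no rate for them.

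**Figure D1:**
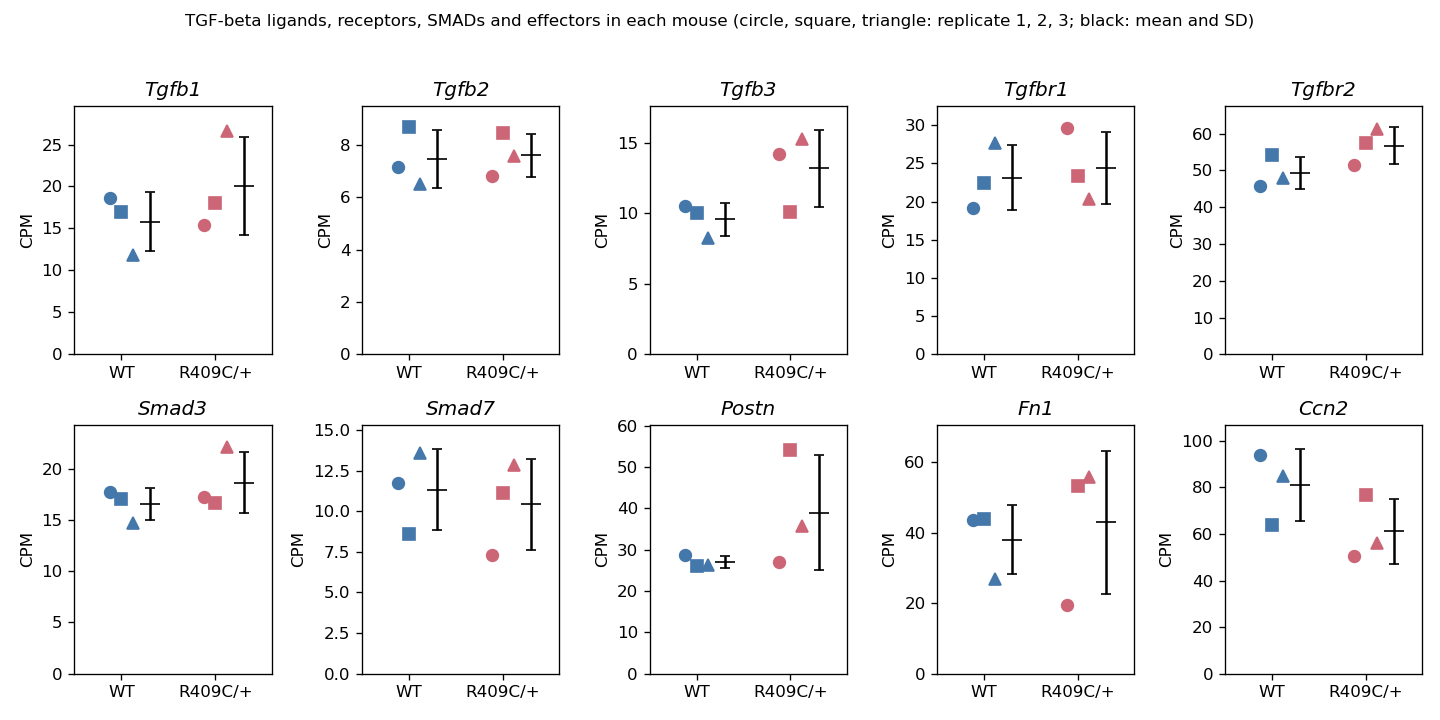
Expression of the 10 genes in CPM (vertical axes, from 0) in each WT and R409C/+ mouse (points; the marker shape gives the replicate number), with the mean and SD beside them (n = 3). The groups overlap in every panel, and relative to their means *Postn* and *Fn1* are spread most widely among the R409C/+ mice.

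*Tgfb1* (ENSMUSG00000002603.16; chromosome 7, 25386390 to 25404506, GRCm39, + strand) encodes the main ligand made by immune cells, platelets, and fibroblasts. In order of replicate number, here and below, the WT mice had 18.6, 16.9, and 11.9 CPM and the R409C/+ mice had 15.4, 18.1, and 26.7 CPM. R409C/+ replicate 3 stood above all other mice and WT replicate 3 below them, while the other 4 mice lay between 15.4 and 18.6 CPM. *Tgfb1* had a log2 fold change of 0.35 ± 0.23 (SE), with a 95% interval of -0.16 to 0.85 and an adjusted p of 0.715 in edgeR. Without R409C/+ replicate 3 it was 0.09.

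*Tgfb2* (ENSMUSG00000039239.15; chromosome 1, 186354985 to 186438294, - strand) encodes the ligand known for its part in valve and outflow tract formation. WT mice had 7.16, 8.67, and 6.51 CPM, and R409C/+ mice had 6.80, 8.45, and 7.59 CPM. Values of both groups covered nearly the same range. The log2 fold change of 0.03 ± 0.20 had a 95% interval of -0.39 to 0.46, and its sign turned without WT replicate 3 and without R409C/+ replicate 2, at -0.06 in each case.

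*Tgfb3* (ENSMUSG00000021253.8; chromosome 12, 86102756 to 86126301, - strand) encodes the third ligand, which is made by cells of mesenchymal origin. The WT mice were at 10.5, 9.99, and 8.23 CPM and the R409C/+ mice at 14.2, 10.1, and 15.3 CPM. R409C/+ replicates 1 and 3 exceeded every WT mouse, while R409C/+ replicate 2 lay within the WT range. *Tgfb3* had a log2 fold change of 0.46 ± 0.20, with a 95% interval of 0.03 to 0.90, and in edgeR its p was 0.0383 unadjusted and 0.554 adjusted. An exact permutation test of the CPM of 3 against 3 mice gave a 2-sided p of 0.2, where 0.1 is the smallest value it can give. Its direction was the same in all 16 alternatives, with values of 0.34 to 0.62 when 1 mouse was left out and 0.31 without WT replicate 3 and R409C/+ replicate 1. Of the exon bases of *Tgfb3*, 3.43% are shared with *Ttll5*, 6.46% with *Gm48008*, and 3.13% with *Gm37804*, all on the opposite strand. The sources do not say whether counting used the strand, and *Gm48008* and *Gm37804* were listed at 0 CPM in every mouse. *Ttll5* was at 6.01 to 10.9 CPM, with a log2 fold change of -0.01.

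The combined level of the ligands was compared per kilobase of exon (CPM per kb), since genes of different length can be compared only per length. Summed over the 3 ligands it was 6.81, 6.63, and 4.95 CPM per kb in WT and 6.84, 6.85, and 9.39 CPM per kb in R409C/+ mice. The ranges of this sum did not overlap, but the nearest mice of the 2 groups were at 6.81 and 6.84 CPM per kb. With the longest transcript as length, the sum was 11.1, 10.6, and 7.81 CPM per kb in WT and 10.7, 11.04, and 15.4 CPM per kb in R409C/+ mice, and the ranges overlapped. Both sums were formed after the single values had been seen, and no test was made of them. *Tgfb1* made up 50.3% ± 3.31 of the ligand sum in WT and 50.7% ± 5.83 in R409C/+ mice (SD, n = 3), and *Tgfb3* made up 30.1% ± 1.59 and 33.1% ± 5.92. The share of *Tgfb2* was 19.6% ± 2.40 and 16.2% ± 3.41. All 3 shares overlapped between the groups.

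*Tgfbr1* (ENSMUSG00000007613.16; chromosome 4, 47353134 to 47414931, + strand), which encodes the signaling receptor kinase, was at 19.2, 22.5, and 27.6 CPM in WT mice. In R409C/+ mice it was at 29.6, 23.4, and 20.3 CPM, so that both groups held high and low mice. The log2 fold change was 0.08 ± 0.19, with a 95% interval of -0.34 to 0.50. *Tgfbr2* (ENSMUSG00000032440.14; chromosome 9, 115913361 to 116004800, - strand), which encodes the ligand-binding receptor kinase, was at 45.7, 54.1, and 48.0 CPM in WT and 51.3, 57.3, and 61.3 CPM in R409C/+ mice. R409C/+ replicates 2 and 3 exceeded the WT mice and R409C/+ replicate 1 did not. Its log2 fold change was 0.20 ± 0.15, with a 95% interval of -0.13 to 0.53 and an adjusted p of 0.754 in edgeR.

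*Smad3* (ENSMUSG00000032402.13; chromosome 9, 63554049 to 63665476, - strand), which encodes the receptor-activated transcription factor, was at 17.7, 17.1, and 14.8 CPM in WT mice and 17.2, 16.6, and 22.1 CPM in R409C/+ mice. Only R409C/+ replicate 3 stood outside the WT range. For *Smad3*, the log2 fold change was 0.18 ± 0.17, with a 95% interval of -0.20 to 0.55, and it was 0.04 without R409C/+ replicate 3. *Smad7* (ENSMUSG00000025880.12; chromosome 18, 75500374 to 75529006, + strand), which encodes the inhibitor induced by the pathway itself, was at 11.8, 8.62, and 13.6 CPM in WT and 7.33, 11.1, and 12.8 CPM in R409C/+ mice. The log2 fold change of *Smad7* was -0.12 ± 0.24, with a 95% interval of -0.64 to 0.39. It turned to 0.23 without WT replicate 3 and R409C/+ replicate 1, so these data give no direction for *Smad7*.

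**Figure D2:**
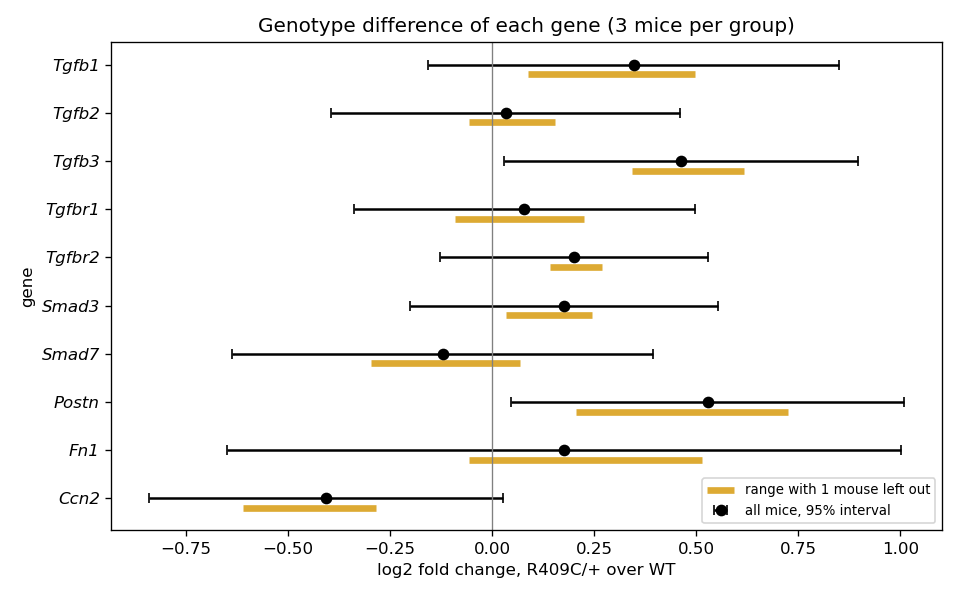
Log2 fold change of R409C/+ over WT mice (horizontal axis) for each of the 10 genes, with its 95% interval (points and bars, 3 mice per group) and the range obtained when each mouse was left out in turn (thick bars). The interval lies above 0 only for *Tgfb3* and *Postn*, before adjustment for the number of genes tested, and the thick bars cross 0 for *Tgfb2*, *Tgfbr1*, *Smad7*, and *Fn1*.

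*Postn* (ENSMUSG00000027750.17; chromosome 3, 54268501 to 54298471, + strand) encodes periostin, the matricellular protein that marks activated cardiac fibroblasts. WT mice were close together at 28.6, 26.1, and 26.4 CPM. R409C/+ mice were at 27.0, 54.2, and 35.6 CPM, so that replicates 2 and 3 exceeded every WT mouse and replicate 1 lay among them. *Postn* had a mean of 27.0 ± 1.39 CPM in WT and 38.9 ± 13.9 CPM in R409C/+ mice (SD, n = 3). Its log2 fold change was 0.53 ± 0.22, with a 95% interval of 0.05 to 1.01, and in edgeR its p was 0.0342 unadjusted and 0.551 adjusted. The exact permutation test gave a 2-sided p of 0.2. R409C/+ replicate 2 decided its size, as the log2 fold change was 0.21 without that mouse, and it was 0.72 without WT replicate 3 and R409C/+ replicate 1.

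*Fn1* (ENSMUSG00000026193.16; chromosome 1, 71624673 to 71692419, - strand) encodes fibronectin, the adhesive glycoprotein of early scar. It varied most of the 10 genes, 2.85-fold between the highest and the lowest mouse. The WT mice were at 43.5, 43.7, and 26.7 CPM and the R409C/+ mice at 19.6, 53.3, and 55.7 CPM. The highest and the lowest of the 6 values were both in R409C/+ mice, and the lowest was the library with the largest mitochondrial share. *Fn1* had a log2 fold change of 0.18 ± 0.36, with a 95% interval of -0.65 to 1.0. Leaving out 1 mouse moved it between -0.06 and 0.52.

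*Ccn2* (ENSMUSG00000019997.12; chromosome 10, 24471333 to 24474900, + strand) encodes the matricellular protein induced by TGF-beta and by the mechanosensitive YAP and TEAD factors. WT mice had 94.0, 63.9, and 84.9 CPM, and R409C/+ mice had 50.5, 76.8, and 55.9 CPM. R409C/+ replicates 1 and 3 were below every WT mouse, and R409C/+ replicate 2 was within the WT range. Its log2 fold change was -0.41 ± 0.20, with a 95% interval of -0.84 to 0.03, and in edgeR its p was 0.0641 unadjusted and 0.599 adjusted. *Ccn2* was below 0 in all 16 alternatives, from -0.61 to -0.28 when 1 mouse was left out and at -0.25 without WT replicate 3 and R409C/+ replicate 1. Of the exon bases of *Ccn2*, 36.5% are shared with *Gm15270* on the opposite strand, which was listed at 0.881 to 1.41 CPM, and without strand the reads of this stretch could not be told apart.

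Which of the 10 genes reached an unadjusted p under 0.05 depended on single mice and on the processing. They were *Tgfb3* and *Postn* with all mice, *Fn1* and *Postn* without R409C/+ replicate 1, *Ccn2* and *Tgfb3* without R409C/+ replicate 2, and *Postn* alone without R409C/+ replicate 3. Without WT replicate 1 or WT replicate 2 it was *Tgfb3* or *Ccn2* alone, respectively, and without WT replicate 3 it was none. *Fn1* and *Postn* were the 2 genes when both WT replicate 3 and R409C/+ replicate 1 were left out. Of the 10 genes, 9 were then above 0, and the share of all tested genes above 0 in that setting is not given here. Without these libraries, the log2 fold change was 0.33 for *Tgfb1*, 0.02 for *Tgfb2*, 0.07 for *Tgfbr1*, 0.25 for *Tgfbr2*, 0.15 for *Smad3*, and 0.32 for *Fn1*. With all mice kept, none reached it with library size only or with the replicate block, and *Ccn2* joined *Tgfb3* and *Postn* without a filter and with a gene length correction.

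*Postn* and *Ccn2* were the effectors whose fold changes lay farthest apart, and their ratio within a mouse does not depend on library scaling. *Postn* over *Ccn2* in CPM was 0.304, 0.408, and 0.310 in WT and 0.535, 0.705, and 0.637 in R409C/+ mice. Every R409C/+ mouse was above every WT mouse. The means were 0.341 ± 0.0584 and 0.626 ± 0.0859 (SD, n = 3). This pair was picked after the values had been seen, so the ratio is a description with no test. *Fn1* over *Postn* was 1.52, 1.68, and 1.01 in WT and 0.725, 0.984, and 1.56 in R409C/+ mice, and these ranges overlapped. *Tgfb3* over *Tgfb2* was 1.46, 1.15, and 1.26 in WT and 2.08, 1.20, and 2.01 in R409C/+ mice, with replicate 2 of the R409C/+ mice among the WT values. Relative to *Dcn*, which encodes decorin of resident fibroblasts, *Postn* was at 8.42%, 7.12%, and 8.50% in WT and at 6.78%, 13.9%, and 10.3% in R409C/+ mice, which also overlapped.

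**Figure D3:**
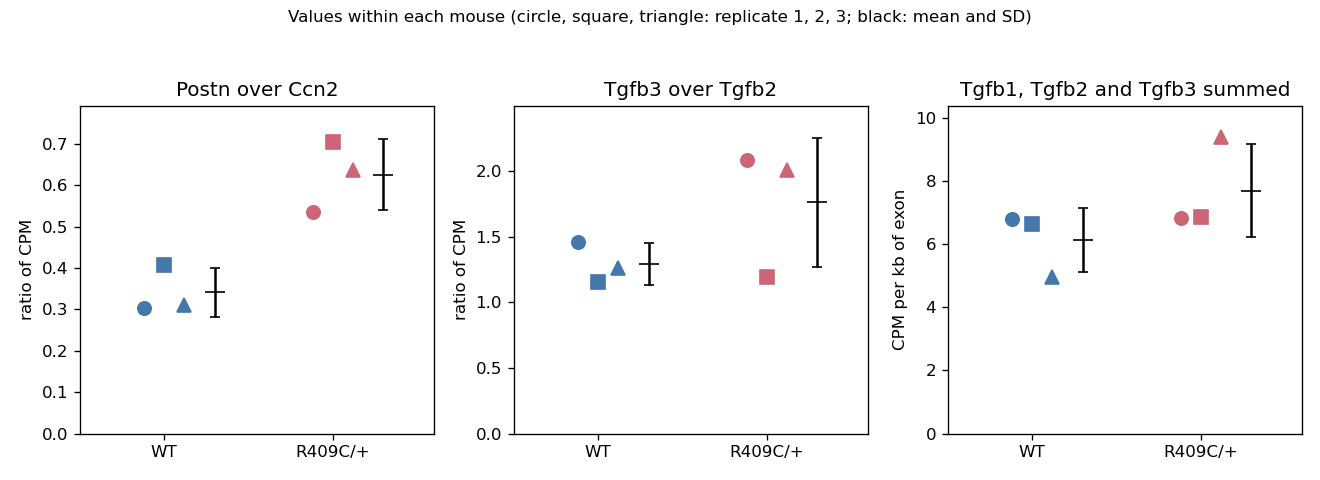
*Postn* over *Ccn2* and *Tgfb3* over *Tgfb2* (ratios of CPM) and the summed level of the 3 ligands (CPM per kb of exon) in each mouse (points, with the replicate number given by the marker shape) with the mean and SD (n = 3). The groups do not overlap for *Postn* over *Ccn2*, they overlap for *Tgfb3* over *Tgfb2*, and for the ligand sum they do not overlap here but overlap when the longest transcript gives the length.

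The sequence upstream of *Postn* is shown because *Postn* had the largest log2 fold change of the 10 genes. It is the 250 bases before the start of the canonical transcript in GRCm39, read 5′ to 3′ on the + strand, at chr3:54268251-54268500. CAGAC (a SMAD box), GGAATG (the core recognized by TEAD factors), and TATAAA (found before some start sites) were searched on both strands, and a match would stand in capitals.
Postn: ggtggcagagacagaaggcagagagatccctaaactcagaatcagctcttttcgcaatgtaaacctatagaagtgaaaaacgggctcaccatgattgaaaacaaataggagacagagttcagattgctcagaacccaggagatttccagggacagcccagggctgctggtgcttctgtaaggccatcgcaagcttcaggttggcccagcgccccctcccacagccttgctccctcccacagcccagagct
None of these words was in the *Postn* window. Among the windows of 17125 tested genes, 41.5% held CAGAC, 11.8% held GGAATG, and 8.86% held TATAAA. Of the 9 windows searched among the 10 genes, 5 held CAGAC (*Tgfb2*, *Tgfbr1*, *Tgfbr2*, *Smad3*, and *Fn1*), and that of *Tgfb3* held GGAATG and TATAAA. The canonical start of *Tgfb3* lies inside the annotated gene, so its window does too. A match is a description of letters and not a bound site, and no match says only that these letters are not in the window.

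Per kilobase of exon, *Ccn2* had the highest level of the 10 genes in WT mice, at 25.4 ± 4.86 CPM per kb (SD, n = 3). It was followed by *Tgfbr2* at 5.60 ± 0.495, *Tgfbr1* at 3.49 ± 0.642, *Tgfb1* at 3.11 ± 0.691, and *Postn* at 3.09 ± 0.159 CPM per kb. *Smad3* at 2.85 ± 0.270, *Fn1* at 2.40 ± 0.617, *Smad7* at 2.39 ± 0.529, *Tgfb3* at 1.83 ± 0.226, and *Tgfb2* at 1.19 ± 0.177 CPM per kb completed the order. The WT ranges of neighbors in this order did not overlap only between *Ccn2* and *Tgfbr2*, *Tgfbr2* and *Tgfbr1*, and *Tgfb3* and *Tgfb2*. R409C/+ mice had the same first, second, and last genes, with *Postn* in place 3 at 4.45 ± 1.59 CPM per kb. When the longest transcript was used in place of all exon bases, *Tgfb1* moved to place 2 with 6.14 ± 1.37 CPM per kb, and *Ccn2* remained first and *Tgfb2* last.

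**Figure D4:**
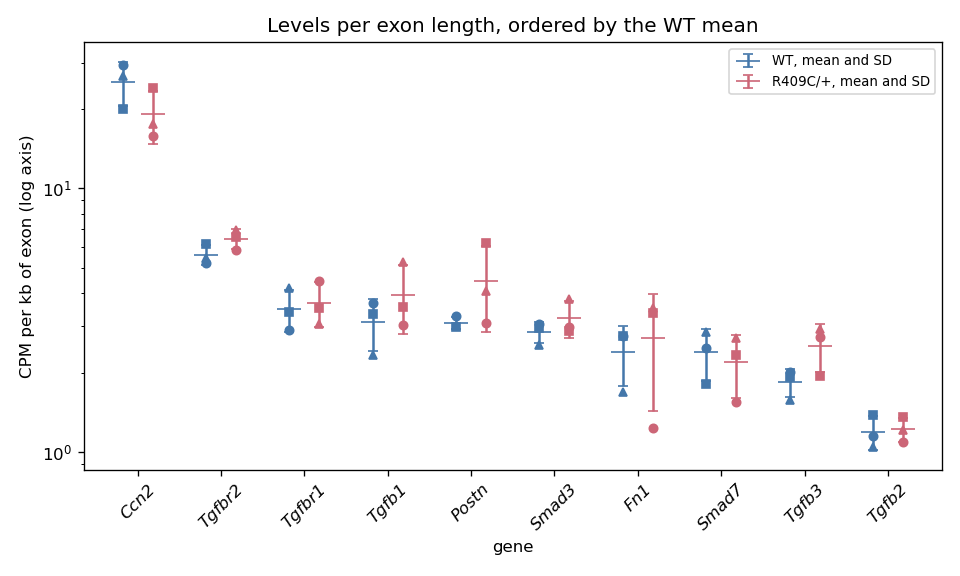
Level of the 10 genes in CPM per kb of exon (vertical log axis), in order of the WT mean, for WT and R409C/+ mice (points, with the replicate number given by the marker shape; lines show the mean and SD, n = 3). *Ccn2* is well above the other genes in both groups, and *Tgfb2* is the lowest in both.

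For *Postn*, *Fn1*, and *Ccn2*, the genes with the most similar course over the 6 mice were sought among 13150 genes, by the root mean square difference of centered log2 CPM. Nearest to *Postn* were *Ccna2* (cyclin A2) at 0.077 and *Asl* (argininosuccinate lyase) at 0.096, where *Postn* itself varied by an SD of 0.41. *Boc* at 0.164 and *Tcf7l1* at 0.166 were nearest to *Fn1*, which had an SD of 0.60. Nearest to *Ccn2*, with an SD of 0.35, were the pseudogene *Nudc-ps1* at 0.042 and *Herpud1*, a gene of the endoplasmic reticulum stress response, at 0.076. None of these genes was among the pathway lists below.

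The rest of the pathway was described with 4 lists that held 115 genes, of which 111 were tested. None was called at an adjusted p of 0.05 in edgeR. At an unadjusted p under 0.05, 15 were higher and 4 lower in R409C/+ mice, or 19 of 111 beside 8.63% of all tested genes. The median log2 fold change was 0.03 against 0.012 for all tested genes. With library size only, the median of all tested genes was -0.14. The list medians were then -0.11 for latency and activation and -0.12 for other receptors and related ligands. They were -0.27 for SMADs and their regulators and 0.12 for TGF-beta response and scar genes.

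Of 23 genes of latency and activation, 5 had an unadjusted p under 0.05 and were higher, 1 was lower, and the median log2 fold change was 0.02 (0.20 without WT replicate 3 and R409C/+ replicate 1). The groups separated in 1 gene with R409C/+ mice higher and in 1 with R409C/+ mice lower. Of all tested genes, 8.3% and 7.23% did so. *Nrros*, which encodes the protein that anchors latent TGF-beta on macrophages and microglia, was at 4.86, 5.75, and 5.20 CPM in WT and 10.7, 7.80, and 6.53 CPM in R409C/+ mice, without overlap. *Thbs1* encodes thrombospondin 1, an activator of latent TGF-beta, and was at 9.20, 12.8, and 16.3 CPM in WT and 15.0, 23.7, and 21.0 CPM in R409C/+ mice. *Emilin1*, which encodes an elastic fiber protein that holds back processing of the TGF-beta precursor, was at 12.2, 17.3, and 18.0 CPM in WT and 15.3, 26.9, and 32.1 CPM in R409C/+ mice. The groups overlapped for *Thbs1* and *Emilin1*. Adjusted p values of these 3 genes were 0.454, 0.483, and 0.520 in edgeR, with log2 fold changes of 0.66, 0.64, and 0.64. The others at an unadjusted p under 0.05, named after their values were seen, were the protease genes *Mmp2* at 0.49 and *Mmp9* at 1.30 and, lower, the integrin gene *Itgav* at -0.40 in log2 fold change.

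Among 24 genes of other receptors and related ligands, 22 were tested, with a median log2 fold change of 0.05 (0.19 without WT replicate 3 and R409C/+ replicate 1). In 3 the groups separated with R409C/+ mice higher and in 1 with R409C/+ mice lower, beside 8.3% and 7.23% of all tested genes. *Bmp4*, a bone morphogenetic protein, alone had an unadjusted p under 0.05, at 3.15, 1.96, and 1.82 CPM in WT and 4.26, 3.40, and 3.28 CPM in R409C/+ mice. *Fstl1*, which encodes a secreted follistatin-like protein, was at 73.0, 82.8, and 86.6 CPM in WT and 89.4, 125, and 98.1 CPM in R409C/+ mice. The groups did not overlap for either gene. *Acvr2a*, an activin receptor, was at 29.0, 34.4, and 37.8 CPM in WT and 28.1, 29.1, and 22.5 CPM in R409C/+ mice, and the groups overlapped. Log2 fold changes of *Bmp4*, *Fstl1*, and *Acvr2a* were 0.66, 0.37, and -0.35, with adjusted p values of 0.554, 0.578, and 0.599 in edgeR.

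The list of 26 SMADs and their regulators had 20 genes below 0 and a median log2 fold change of -0.10, and 2 of them (*Usp15* and *Smad4*) were lower at an unadjusted p under 0.05. In 6 of 26 the groups separated with R409C/+ mice lower, beside 7.23% of all tested genes. In 1 they separated with R409C/+ mice higher, beside 8.3%. Without WT replicate 3 and R409C/+ replicate 1 the median was -0.14, and 1 gene was lower and 1 higher at an unadjusted p under 0.05. The share of all tested genes at that p without these libraries is not given here. *Smad4*, the common partner of the activated SMADs, was at 54.9, 59.2, and 64.7 CPM in WT and 49.1, 50.7, and 40.8 CPM in R409C/+ mice. *Usp15* and *Usp4* encode deubiquitinases that stabilize the type I receptor. *Usp15* was at 90.1, 84.7, and 98.3 CPM in WT and 71.8, 72.7, and 63.8 CPM in R409C/+ mice, and *Usp4* was at 68.8, 66.3, and 76.1 CPM against 50.6, 61.3, and 59.0 CPM. All R409C/+ mice were below all WT mice for these 3 genes, with log2 fold changes of -0.35, -0.39, and -0.31 for *Smad4*, *Usp15*, and *Usp4* and adjusted p values of 0.568, 0.500, and 0.601 in edgeR.

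Of 42 TGF-beta response and scar genes, 40 were tested, 29 were above 0, and the median log2 fold change was 0.29. At an unadjusted p under 0.05, 9 were higher and 1 was lower. The groups separated in 8 with R409C/+ mice higher, beside 8.3% of all tested genes. In 1 they separated with R409C/+ mice lower, beside 7.23%. *Tgfbi*, which encodes a matrix protein named for its induction by TGF-beta, was at 12.9, 15.2, and 14.6 CPM in WT and 23.1, 20.4, and 26.7 CPM in R409C/+ mice. It had a log2 fold change of 0.72 ± 0.17 and an adjusted p of 0.215 in edgeR, whereas DESeq2 gave an adjusted p of 0.0291 and the edgeR exact test 0.0304. Over all alternatives its adjusted p lay between 0.0291 and 0.976. *Comp*, which encodes cartilage oligomeric matrix protein, was at 1.36, 0.886, and 1.84 CPM in WT and 3.12, 2.03, and 6.51 CPM in R409C/+ mice. The groups did not overlap for *Tgfbi* and *Comp*. *Comp* had a log2 fold change of 1.51 ± 0.42 with an adjusted p of 0.307 in edgeR and 0.0411 in DESeq2 (0.0411 to 0.613 over all alternatives), and its log2 fold change was 0.91 without R409C/+ replicate 3. *Aspn*, which encodes asporin, a proteoglycan that binds TGF-beta, was at 26.4, 19.1, and 25.1 CPM in WT and 58.0, 49.4, and 24.8 CPM in R409C/+ mice, so that 1 R409C/+ mouse lay among the WT mice. The 1 gene that was lower, named after its value was seen, was the smooth muscle gene *Tagln* at -0.65. The smooth muscle marker *Myh11*, also named after its values were seen, was at 12.5, 11.6, and 11.8 CPM in WT and 4.96, 7.20, and 9.87 CPM in R409C/+ mice, without overlap, and it was the only 1 of 9 mural markers to separate the groups. *Acta2*, another smooth muscle gene of the scar list, was at 60.8, 58.1, and 60.7 CPM in WT and 38.2, 59.2, and 66.3 CPM in R409C/+ mice, with overlap. In a comparison chosen after seeing the data, WT replicate 3 and R409C/+ replicate 1 were left out. The median of this list was then 0.48, where that of all tested genes was 0.008. Without R409C/+ replicate 3 the list median was 0.11.

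**Figure D5:**
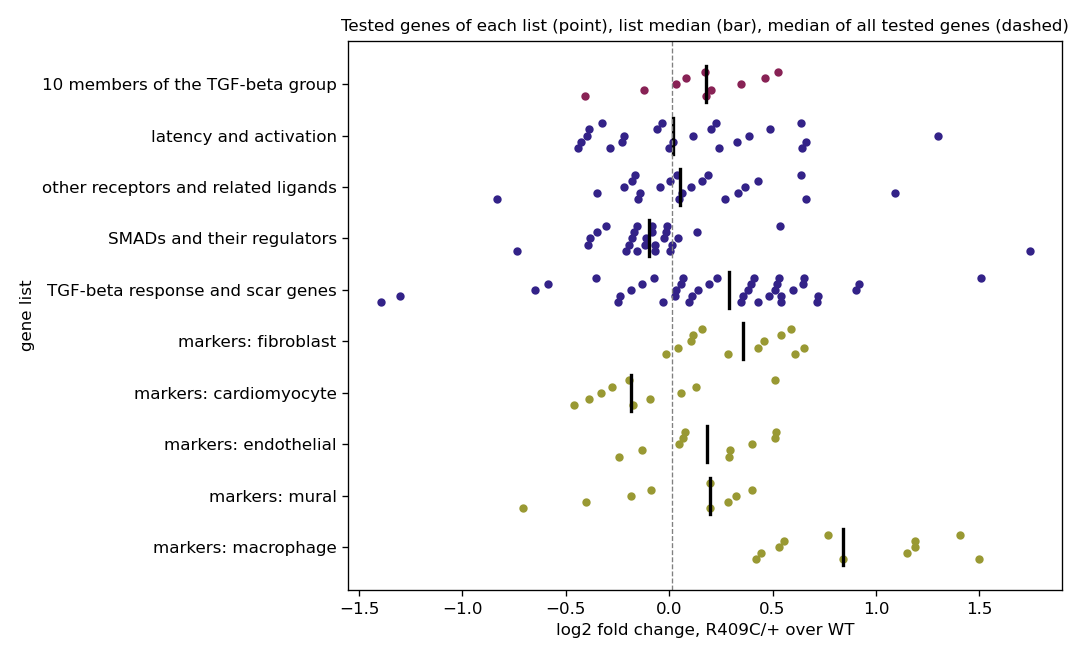
Log2 fold change of R409C/+ over WT mice (horizontal axis) for each tested gene of the 10-gene group, the 4 pathway lists, and the 5 main cell type marker lists (points), with the median of each list (bars) and that of all tested genes (dashed line, at 0.012). The macrophage markers all lie above 0, and the medians of the scar genes and the fibroblast markers are 0.29 and 0.36.

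Markers of the cell types that make or receive these signals moved in part with the groups. Over all tested genes, 51.4% were above 0 and, as given above, 8.3% separated the groups with R409C/+ mice higher. The 11 macrophage markers were all above 0, 10 of them separated the groups, and their summed level was 243 to 286 CPM in WT and 419 to 515 CPM in R409C/+ mice. *C1qb* and *C1qc* of this list were called higher, each with an adjusted p of 0.0241 in edgeR. The log2 fold change over all alternatives was 1.01 to 1.23 for *C1qb* and 1.04 to 1.24 for *C1qc*, but both calls were lost with any 1 mouse left out (adjusted p of 0.0567 to 0.192), with library size only (0.447 and 0.379), with the replicate block (0.173 for both), and without WT replicate 3 and R409C/+ replicate 1 (0.167 and 0.110). Of 12 fibroblast markers, 11 were above 0, 4 separated the groups, and 0 were called, with sums of 1377 to 1516 CPM in WT and 1301 to 1789 CPM in R409C/+ mice. Their median log2 fold change of 0.36 stood beside 0.29 for the scar genes. Cardiomyocyte markers summed to 54392 to 57600 CPM in WT and 39011 to 53465 CPM in R409C/+ mice, without overlap. The sums overlap when *Atp2a2*, at 13815 to 14800 CPM in WT and 8720 to 11626 CPM in R409C/+ mice, is left out. Of these 10 markers, 7 were below 0, *Tnnt2*, *Myl2*, and *Myl3* were above 0, and the median log2 fold change was -0.19. The groups separated in 2 of them (*Ryr2* and *Atp2a2*) with R409C/+ mice lower, beside 7.23% of all tested genes. Endothelial markers summed to 865 to 960 CPM and 836 to 1210 CPM, with 8 of 10 above 0, 2 separating the groups with R409C/+ mice higher, and a median log2 fold change of 0.18. Mural markers summed to 926 to 1216 CPM and 916 to 1133 CPM, mostly from *Rgs5* and *Abcc9*, with 5 of 9 above 0 and a median of 0.20. Of the 6 epicardial and valve markers, which summed to 6.82 to 7.31 CPM in WT and 6.17 to 9.92 CPM in R409C/+ mice, 3 were above 0 and 0 were called. The mesothelial marker *Upk3b* separated the groups with R409C/+ mice higher (0.166 to 0.718 against 1.01 to 2.40 CPM) and *Wif1* with R409C/+ mice lower (1.15 to 2.27 against 0.455 to 0.727 CPM). *Msln* was higher at an unadjusted p of 0.0294 in edgeR, with overlap of the groups. Platelet markers, of a cell known to store TGF-beta 1, summed to 5.95 to 13.8 CPM in WT and 12.2 to 17.4 CPM in R409C/+ mice, and 7 erythroid markers summed to 579 to 1479 CPM and 1043 to 2626 CPM. The 5 platelet and 6 erythroid markers that were tested were all above 0, and 1 of each list separated the groups. *Pf4*, at 4.99 to 15.4 CPM, made up most of the platelet sum, and *Clec1b* was at 0.0621 to 0.348 CPM in WT and 0.378 to 0.650 CPM in R409C/+ mice, without overlap. Of the other 6 platelet markers, *Ppbp*, *Itga2b*, and *Gp1bb* reached 0.657, 0.876, and 0.359 CPM, and *Gp9*, *Gp6*, and *Treml1* did not exceed 0.211 CPM in any mouse. The part of these cell types in the values of *Tgfb1*, *Tgfb3*, *Postn*, and the scar genes was not tested.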

How the data were processed

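Total RNA from perfused LVs was made into libraries with the NEBNext Ultra II RNA kit and sequenced on an Illumina instrument. Per the submitters' processing notes and the study's methods, the authors ran Trim Galore, HISAT2, and StringTie against GRCm39 and excluded rRNA. The deposited values used here are counts per gene, whole numbers without normalization. How counts were taken from StringTie, and whether strand was used, is not given in the sources used here. From a table in which the authors deposited log2 fold changes, log2 CPM, and p-values of their own edgeR comparison, only the gene names were read, to find the 10 genes.

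Counts were tested in R 4.3.3 with edgeR 4.0.16 (filterByExpr, TMM, robust quasi-likelihood test, WT against R409C/+, 3 mice each, Benjamini-Hochberg adjustment, threshold 0.05), after a check on simulated data. DESeq2 1.42.0, the edgeR exact test, other normalizations and filters, and leaving out mice were alternatives. Gene models were those of GENCODE for GRCm39, where 668 listed genes had no entry. The genes, the lists, and the tests were chosen with earlier results of these data known. The text names all 10 genes, the 3 genes of each pathway list with the smallest unadjusted p, and the 2 genes nearest in course to each effector, where the mean log2 CPM was above 0. The upstream window of 1 gene is not reported here.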

Additional observations from a re-analysis of the deposited data

How the results depend on the processing

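None of the 10 genes was called under any of the alternatives. Over all tested genes, 6 were called higher and 1 lower in R409C/+ mice. The number higher was 15 with library size only, 136 in DESeq2, 127 in the edgeR exact test, 19 without a filter, 15 at a false discovery rate of 0.1, 0 without WT replicate 3 and R409C/+ replicate 1, and 1 to 3 when 1 mouse was left out. The number lower was 6 with library size only, 14 in DESeq2, 13 in the edgeR exact test, 0 with at least 10 counts in every mouse, and 1 to 2 when 1 mouse was left out. The cause was not tested. With library size only, the median of all genes shifted by -0.16, and *Tgfb2* was at -0.089 and *Tgfbr1* at -0.15. *Smad7* was at 0.23 without WT replicate 3 and R409C/+ replicate 1. When 1 mouse was left out, log2 fold changes ranged from -0.057 to 0.15 for *Tgfb2*, -0.090 to 0.23 for *Tgfbr1*, -0.30 to 0.070 for *Smad7*, -0.056 to 0.52 for *Fn1*, -0.13 to 0.48 for *Boc*, and -0.10 to 0.50 for *Tcf7l1*. *Tgfb1*, *Tgfb3*, *Tgfbr2*, *Smad3*, *Postn*, and *Ccn2* kept their direction in all 16 alternatives. Same-numbered mice did not deviate together (correlations of -0.001, 0.022, and -0.057). With 3 mice per group, and WT replicate 3 and R409C/+ replicate 1 outlying in mitochondrial share, this cannot decide whether the numbers pair mice. With the replicate number as a block, 0 genes were called higher and 1 lower, and none of the 10 genes had an unadjusted p under 0.05. Nothing states that the mice came from separate litters, so the independence of the 6 mice that the p-values assume is not known. The common biological coefficient of variation between mice was 26.1%.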
